A study of Mus musculus with 4 samples.

Results

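Matrix metalloproteinases and their inhibitors were examined as a group of 10 genes among the 32285 genes of the table: the metalloproteinases Mmp2, Mmp3, Mmp9, Mmp10, Mmp13 and Mmp14, the related protease Adamts5, and the inhibitors Timp1, Timp2 and Timp3. They were found by gene symbol, and all 10 were present in every library. The members were chosen by their measured levels in these same libraries, with earlier results known, so the levels below are a description and were not tested. Cells were the barcodes with 5000 to 75000 UMIs (unique molecular identifiers, each standing for 1 captured RNA molecule), 200 to 7500 genes and under 10% mitochondrial UMIs.

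The 4 libraries are single-cell RNA-seq of primary mouse cells in culture, with 1 library per condition. De-differentiated fat (DFAT) cells make up iWAT_DFAT and eWAT_DFAT, and were obtained by ceiling culture of mature adipocytes from inguinal (iWAT) and epididymal (eWAT) white adipose tissue. In ceiling culture, floating adipocytes attach to the upper face of a filled flask and lose their lipid. The iWAT_SVF and eWAT_SVF libraries hold the plated stromal vascular fraction (SVF) of the same 2 depots, which contains the adipose stem and progenitor cells. Per the methods, the animals were male C57BL/6J mice on a chow diet, and no treatment or transgene is given for any library. The age of the animals and the number pooled into each library are not given in the sources used here. The DFAT cells of these libraries were obtained by flotation, with no genetic label of their origin. In separate cultures, the study followed genetically labelled eWAT adipocytes and reports that most spindle-shaped cells kept the label. It also reports no labelled cells in DFAT cultures from mice whose stem and progenitor cells were labelled.

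The kept cells numbered 7629 in iWAT_DFAT, 6464 in eWAT_DFAT, 7424 in iWAT_SVF and 6745 in eWAT_SVF, with 183664704 to 199357348 UMIs in all and a median of 22111 to 27617 UMIs per cell. Any 2 libraries shared 13 to 20 cell barcodes, at most 0.297% of the smaller library. With a UMI of at least 3 of 6 stromal markers taken as the mark of a stromal cell, 97.9% of iWAT_DFAT, 85.8% of eWAT_DFAT, 93.9% of iWAT_SVF and 93.0% of eWAT_SVF cells were stromal. Of 6 adipocyte markers, Lep was at 0 in every library, and 34, 188, 2 and 2 cells, in the same order, had a UMI of 3 or more. Levels are given as counts per 1000000 UMIs (CPM), summed over the cells of a library. Because each condition is 1 culture, the intervals below cover counting error only, and no difference between cultures could be tested.

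Matrix metalloproteinases are zinc-dependent proteases that cut collagens, proteoglycans and other extracellular proteins. Most are secreted as inactive precursors and must be cleaved to become active, so a transcript level is not an activity. Tissue inhibitors of metalloproteinases (TIMPs) bind the active site and block it, and TIMP3, which stays bound to the matrix, also inhibits ADAMTS proteases. In adipose tissue this system remodels the collagen around adipocytes as they enlarge, and fibroblast-like stromal cells are a main source.

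Promoter sequences of 7 of the 10 genes were available from RefSeq (GRCm38.p6): Mmp3, Mmp10, Mmp13, Mmp14, Timp1, Timp2 and Timp3. The 130 bases before the start of transcription are shown for 3 metalloproteinase genes of a cluster on chromosome 9 and for Timp1. Timp1 is the inhibitor with the most UMIs. Like the 3 metalloproteinase genes, Timp1 was over 2-fold higher in DFAT than in SVF cells of eWAT. All 4 genes lie on the plus strand, the windows are chr9:7445692-7445821, chr9:7502212-7502341, chr9:7272384-7272513 and chrX:20870036-20870165, and capitals mark matches to the motifs described next.
Mmp3: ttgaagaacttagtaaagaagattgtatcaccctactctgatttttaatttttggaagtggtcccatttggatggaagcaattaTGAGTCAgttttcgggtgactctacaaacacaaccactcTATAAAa
Mmp10: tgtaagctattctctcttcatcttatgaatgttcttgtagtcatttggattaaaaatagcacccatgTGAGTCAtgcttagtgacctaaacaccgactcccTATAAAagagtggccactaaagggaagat
Mmp13: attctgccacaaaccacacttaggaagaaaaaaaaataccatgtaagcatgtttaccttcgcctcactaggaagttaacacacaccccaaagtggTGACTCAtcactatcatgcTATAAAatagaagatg
Timp1: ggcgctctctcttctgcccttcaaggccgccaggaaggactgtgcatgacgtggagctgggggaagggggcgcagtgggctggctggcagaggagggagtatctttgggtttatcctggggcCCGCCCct

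The 250 bases before each start were searched for 4 motifs. The AP-1 site was TGANTCA, which reads the same on both strands. The TATA box was TATAAA on the strand of the gene, the GC box was GGGCGG on either strand, and the fourth was the NF-kB consensus on either strand. No 2 matches of different motifs overlapped. Mmp3, Mmp10 and Mmp13 each held 1 AP-1 site, which began 46, 63 and 35 bases before the start, and 1 TATA box, which began 7, 29 and 16 bases before it. None of these 3 held a GC box. In contrast, Mmp14, Timp1, Timp2 and Timp3 each held a GC box (2 in Mmp14) and neither an AP-1 site nor a TATA box, and none of the 7 held the NF-kB consensus. Over all 32817 RefSeq promoters of this length, 6.75% held the AP-1 letters, 7.60% the TATA box, 32.7% the GC box and 3.90% the NF-kB consensus. These are matches of letters, and binding was not measured.

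The stromelysin Mmp3, which cuts proteoglycans and activates other metalloproteinases, was much higher in DFAT than in SVF cells of both depots. The gene (ENSMUSG00000043613) lies at chr9:7445822-7455975 on mm10. Its level was 426 CPM in iWAT_DFAT (95% Poisson interval 423 to 429), 179 in eWAT_DFAT (177 to 181), 21.6 in iWAT_SVF (21.0 to 22.3) and 19.7 in eWAT_SVF (19.0 to 20.3). The DFAT libraries thus stood above both SVF libraries, and the intervals of the 2 SVF libraries did not overlap although their levels were close. For iWAT the log2 ratio of DFAT over SVF was 4.30 (exact binomial interval 4.26 to 4.35), a 19.7-fold difference. For eWAT it was 3.18 (3.14 to 3.23), or 9.09-fold. Between depots, the DFAT ratio was 1.25 and the SVF ratio 0.14 on the log2 scale. Transcripts of Mmp3 share stretches of up to 284 bases, at 90% identity or more, with 2 other genes, Gm15242 and Gm15244, so counts may be split among them.

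Mmp3 transcripts were concentrated in a small number of cells. At least 1 UMI was found in 71.3%, 46.7%, 12.5% and 8.70% of the cells of iWAT_DFAT, eWAT_DFAT, iWAT_SVF and eWAT_SVF. With every cell thinned to 5000 UMIs, the shares were 48.3%, 25.1%, 4.98% and 3.66%. For a background, cells with 3 or more endothelial markers and fewer than 3 stromal ones were used (14, 121, 34 and 115 cells, median 16524, 9478, 13354 and 14147 UMIs), and a Mmp3 UMI was in 21.4%, 4.13%, 2.94% and 0.870% of them. Each library's share among all cells was above its background share, but in iWAT_SVF the background share is 1 of 34 cells. After thinning, the background shares were 7.14%, 1.65%, 2.94% and 0%, so in iWAT_SVF the 2 shares were close. Mmp3 in the iWAT_SVF background cells was at 2.06 CPM (0.05 to 11.5). As much as 50% of the Mmp3 UMIs came from 532 cells in iWAT_DFAT, which is 6.97% of its cells, and from 229, 79 and 31 cells in the other three. The highest cell had 596 UMIs in iWAT_DFAT, and in eWAT_SVF a single cell with 297 UMIs held 7.65% of the library's Mmp3. Thus the low SVF levels rest on few cells.

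The neighbouring stromelysin Mmp10 (ENSMUSG00000047562, chr9:7502352-7510240) was highest in eWAT_DFAT. It measured 4.24 CPM in iWAT_DFAT, 37.1 in eWAT_DFAT, 0.241 in iWAT_SVF and 1.57 in eWAT_SVF. The order of the depots was thus the reverse of that for Mmp3 within DFAT cells, with a log2 ratio of -3.13 (-3.24 to -3.02) for iWAT_DFAT over eWAT_DFAT. The eWAT_DFAT level was 23.6-fold that of eWAT_SVF, a log2 ratio of 4.56 (4.39 to 4.73). A UMI was present in 27.3% of eWAT_DFAT cells (10.7% after thinning) and in 1 of the 121 endothelial background cells. Among thinned eWAT_DFAT cells, 19.0% of those with a Mmp3 UMI also had a Mmp10 UMI, against 7.94% of those without.

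The collagenase Mmp13 (ENSMUSG00000050578, chr9:7272514-7283331), which cleaves fibrillar collagen, was low in every library. Its level was 1.23 CPM in iWAT_DFAT, 6.22 in eWAT_DFAT, 0.406 in iWAT_SVF and 0.172 in eWAT_SVF. In only eWAT_DFAT did it pass 5 CPM, the minimum used below for counting ratios. Against eWAT_SVF, the eWAT_DFAT level gave a log2 ratio of 5.17 (4.68 to 5.71), with 1154 UMIs against 34. It was 6.09 with cells that carried markers of other types left out, and 4.62 with each cell thinned to 5000 UMIs. Among the 121 endothelial background cells of eWAT_DFAT, Mmp13 reached 29.4 CPM (21.3 to 39.6, from 43 UMIs in 9.09% of them), above the level over all cells of that library. In iWAT_SVF, 40 of its 81 UMIs came from 1 cell.

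**Figure D1:**
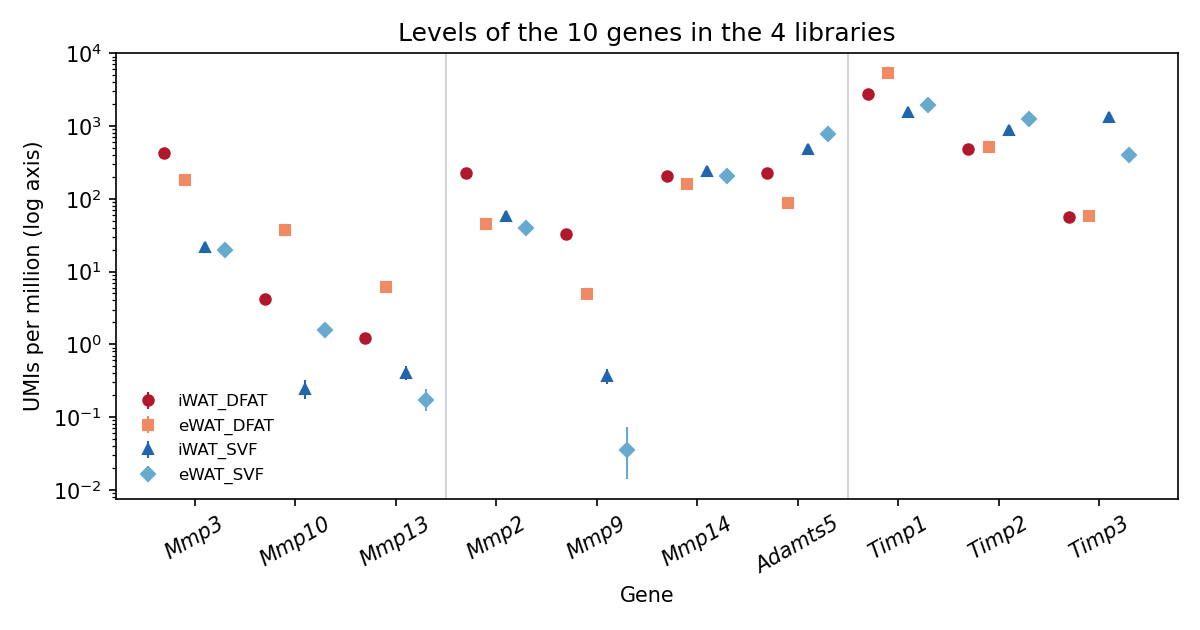
Level of each of the 10 genes in the 4 libraries, in CPM on a log axis, with 95% Poisson intervals that are mostly smaller than the points. Mmp3 was at 426 and 179 in DFAT libraries and near 20 in SVF libraries, Timp3 at 56.4 and 58.5 in DFAT and at 1308 and 402 in SVF libraries, and Mmp14 stayed between 159 and 239.

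Of the gelatinases, which digest denatured and basement membrane collagen, Mmp2 (ENSMUSG00000031740, chr8:92827291-92853420) was highest in iWAT_DFAT. It measured 223 CPM (221 to 225) there, 44.8 (43.9 to 45.8) in eWAT_DFAT, 58.3 (57.2 to 59.3) in iWAT_SVF and 39.0 (38.1 to 39.9) in eWAT_SVF. iWAT_DFAT stood apart and the other three lay within 1.5-fold of each other. Its level gave a log2 ratio over eWAT_DFAT of 2.31 (2.28 to 2.35) and over iWAT_SVF of 1.94 (1.91 to 1.97), whereas the ratio of eWAT_DFAT over eWAT_SVF was 0.20 (0.16 to 0.25). A UMI was found in 92.9% of iWAT_DFAT cells and in 44.7% to 58.3% of the cells elsewhere. These shares were above those in the endothelial background cells (0% to 32.4%), which are shallower. After thinning, the shares were 17.4% of eWAT_DFAT and 15.2% of eWAT_SVF cells, against 1.65% and 1.74% of their background cells. In iWAT_SVF the thinned share was 22.8%, close to the 17.6% of its 34 background cells. The Poisson interval of Mmp2 in those 34 cells was 18.9 to 53.6 CPM, below the level over all iWAT_SVF cells.

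Mmp9 (ENSMUSG00000017737, chr2:164940780-164955850), a gelatinase best known from myeloid cells, was nearly limited to DFAT cells. It stood at 32.6 CPM in iWAT_DFAT, 4.92 in eWAT_DFAT, 0.361 in iWAT_SVF and 0.0354 in eWAT_SVF, the last from 7 UMIs in 7 cells. On the log2 scale, iWAT_DFAT over iWAT_SVF was 6.49 (6.16 to 6.85), and that of iWAT_DFAT over eWAT_DFAT was 2.73 (2.63 to 2.83). In iWAT_DFAT, where Mmp9 was highest, of 6 immune markers Ptprc was at 0.0109 CPM, Tyrobp at 0.0599, Lyz2 at 0.278, Fcer1g at 0.338, Cd68 at 1.62 and Csf1r at 18.4, and 2 cells had 3 or more of them. Their summed level was 20.7, 18.1, 20.8 and 63.2 CPM in iWAT_DFAT, eWAT_DFAT, iWAT_SVF and eWAT_SVF, mostly from Csf1r in the first of these. The part of immune cells in the Mmp9 level was not tested. In eWAT_DFAT, Mmp9 reached 45.6 CPM (38.4 to 53.7) in the 129 cells with 3 or more mural markers. A UMI of Mmp9 was found in 33.7%, 7.81%, 0.350% and 0.104% of the cells of iWAT_DFAT, eWAT_DFAT, iWAT_SVF and eWAT_SVF, and in none of the endothelial background cells. Those counts of 0 allow shares of up to 21.4%, 2.48%, 8.82% and 2.61%, so the SVF shares cannot be told from background. After thinning, the shares in iWAT_DFAT and eWAT_DFAT were 12.57% and 2.26%, within their limits, so these shares cannot be told from background either. By level, the background intervals reached 16.04 CPM in iWAT_DFAT and 2.52 CPM in eWAT_DFAT, below the 32.6 and 4.92 CPM over all cells.

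Mmp14, the membrane-anchored metalloproteinase that activates pro-MMP2, differed least among the proteases. The gene (ENSMUSG00000000957, chr14:54431612-54445364) measured 208 CPM in iWAT_DFAT, 159 in eWAT_DFAT, 239 in iWAT_SVF and 207 in eWAT_SVF. The levels of iWAT_DFAT and eWAT_SVF had overlapping intervals (206 to 210 and 205 to 209). Every ratio was within 2-fold, from -0.38 to 0.39 on the log2 scale. A UMI was found in 91.2% to 95.9% of cells, and in 40.9% to 85.7% of the endothelial background cells, which are shallower. After thinning, the shares were 61.5% of iWAT_DFAT and 51.2% of eWAT_DFAT cells, against 71.4% and 52.9% of their background cells. In iWAT_SVF and eWAT_SVF they were 64.5% and 58.1%, against 38.2% and 22.6%. The endothelial cells thus give no background for Mmp14 in the DFAT libraries. Its transcripts gave 155 matches to transcripts of other genes, the longest of 186 bases at 90% identity or more, so reads there may not be assigned to it alone.

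Adamts5, an aggrecanase that degrades the proteoglycans aggrecan and versican, went the opposite way to Mmp3 between DFAT and SVF cells. The gene (ENSMUSG00000022894, chr16:85856173-85901828) measured 228 CPM (226 to 230) in iWAT_DFAT, 86.6 (85.3 to 87.9) in eWAT_DFAT, 489 (486 to 492) in iWAT_SVF and 780 (776 to 784) in eWAT_SVF. Both SVF libraries were thus above both DFAT libraries. DFAT over SVF gave a log2 ratio of -1.10 (-1.12 to -1.08) for iWAT and -3.17 (-3.20 to -3.15) for eWAT. The depots were in opposite order in the 2 kinds of cell, with a log2 ratio of iWAT over eWAT of 1.40 in DFAT and -0.67 in SVF cells. With each cell thinned to 5000 UMIs, the iWAT ratio of DFAT over SVF was -0.97, just inside 2-fold.

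The inhibitors changed in composition more than in sum. Together, Timp1, Timp2 and Timp3 had 3301.5 CPM in iWAT_DFAT, 5852 in eWAT_DFAT, 3726 in iWAT_SVF and 3567 in eWAT_SVF. Timp1 made up 83.8% and 90.3% of these UMIs in iWAT_DFAT and eWAT_DFAT, but 41.4% and 54.0% in iWAT_SVF and eWAT_SVF. Timp3 made up 1.71% and 0.9996% in the DFAT libraries, and 35.1% and 11.3% in the SVF libraries. These are shares of UMIs, without correction for gene length.

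**Figure D2:**
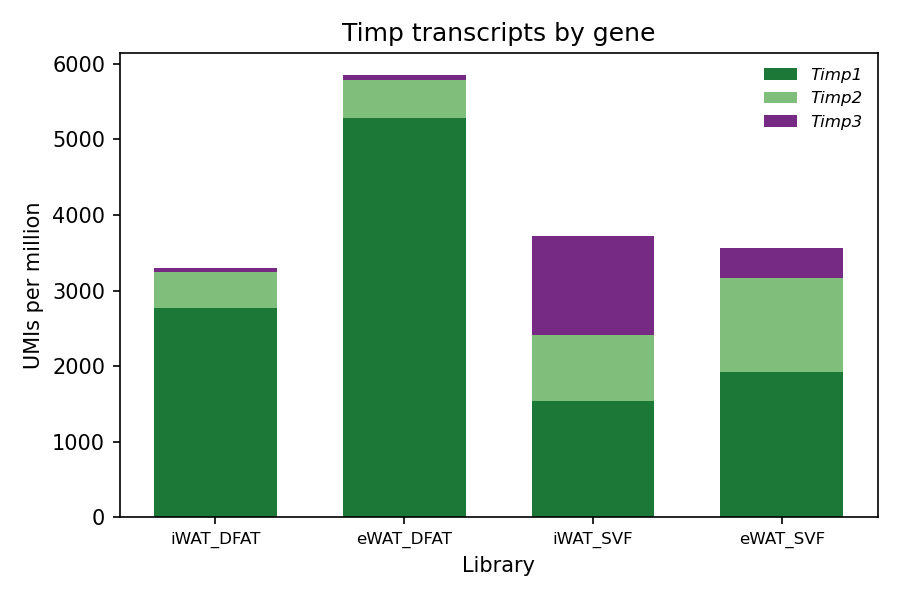
Stacked CPM of Timp1, Timp2 and Timp3 in each library (bars start at 0; 1 library per bar, so no error bar between cultures). The summed level lies between 3301.5 and 5852, while the Timp3 part is barely visible in the DFAT libraries and 35.1% of the bar in iWAT_SVF.

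Timp1 (ENSMUSG00000001131, chrX:20870166-20874735), a secreted inhibitor with growth factor-like activity, measured 2766 CPM in iWAT_DFAT, 5287 in eWAT_DFAT, 1541 in iWAT_SVF and 1924 in eWAT_SVF. Both DFAT libraries were above both SVF libraries, and eWAT was above iWAT in each kind of cell. As log2 ratios, DFAT over SVF was 0.84 for iWAT and 1.46 for eWAT, and that of iWAT_DFAT over eWAT_DFAT was -0.93. At least 98.6% of the cells of every library had a Timp1 UMI, against 52.2% to 92.9% of the endothelial background cells, in which Timp1 was at 94.9 to 170 CPM. The gene lies inside Syn1 on the opposite strand.

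Timp2 (ENSMUSG00000017466, chr11:118301069-118355740), which also takes part in the activation of pro-MMP2 by MMP14, went the opposite way to Timp1 between DFAT and SVF cells. It measured 479 CPM in iWAT_DFAT, 507 in eWAT_DFAT, 877 in iWAT_SVF and 1240.5 in eWAT_SVF. Between DFAT and SVF cells the log2 ratio was -0.87 (-0.89 to -0.86) for iWAT and -1.29 (-1.30 to -1.28) for eWAT, while the DFAT libraries differed by only -0.08. A UMI was found in 95.8% to 99.5% of cells, and in 43.0% to 80.9% of the endothelial background cells. Timp2 overlaps Cep295nl on the same strand, so reads in the shared part are uncertain.

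Timp3 (ENSMUSG00000020044, chr10:86300372-86349506), the matrix-bound inhibitor, was far lower in DFAT than in SVF cells of both depots. It measured 56.4 CPM (55.3 to 57.5) in iWAT_DFAT, 58.5 (57.4 to 59.6) in eWAT_DFAT, 1308 (1303 to 1313) in iWAT_SVF and 402 (399 to 405) in eWAT_SVF. The 2 DFAT libraries had overlapping intervals, and both SVF libraries were far above. The log2 ratio of DFAT over SVF was -4.53 (-4.56 to -4.51) for iWAT and -2.78 (-2.81 to -2.75) for eWAT, and that of iWAT_SVF over eWAT_SVF was 1.70 (1.69 to 1.71). A UMI was present in 23.2% and 36.1% of iWAT_DFAT and eWAT_DFAT cells, and in 95.9% and 86.3% of iWAT_SVF and eWAT_SVF cells (11.1%, 16.2%, 85.4% and 61.5% after thinning). In the endothelial background cells the shares were 57.1%, 61.2%, 76.5% and 65.2%. Those cells held Timp3 at 143.5 CPM in iWAT_DFAT and 171 CPM in eWAT_DFAT, above the level over all cells. They thus give no background for Timp3 in the DFAT libraries. In DFAT libraries few cells held most of it, and 50% of the UMIs came from 184 cells in iWAT_DFAT and 295 in eWAT_DFAT, against 1223 and 849 cells in the SVF libraries. The gene lies inside Syn3 on the opposite strand. The file header of iWAT_SVF, where Timp3 was highest, names Cell Ranger version 4 and those of the other three 7.1.0, which bears on every iWAT_SVF level and ratio given here. Over all genes, the median log2 ratio of iWAT_SVF over eWAT_SVF was -0.01 in the shortest 20% of genes and 0.12 in the longest 20%. That of iWAT_DFAT over iWAT_SVF was -0.08 and 0.29. Long genes, which hold more intron sequence, were thus relatively higher in iWAT_SVF against eWAT_SVF and relatively lower against iWAT_DFAT. Libraries that both name 7.1.0 differed by length too, from -0.05 to 0.26 for iWAT_DFAT over eWAT_DFAT and from -0.02 to 0.15 for eWAT_DFAT over eWAT_SVF. The part of the header version in these values was not tested.

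**Figure D3:**
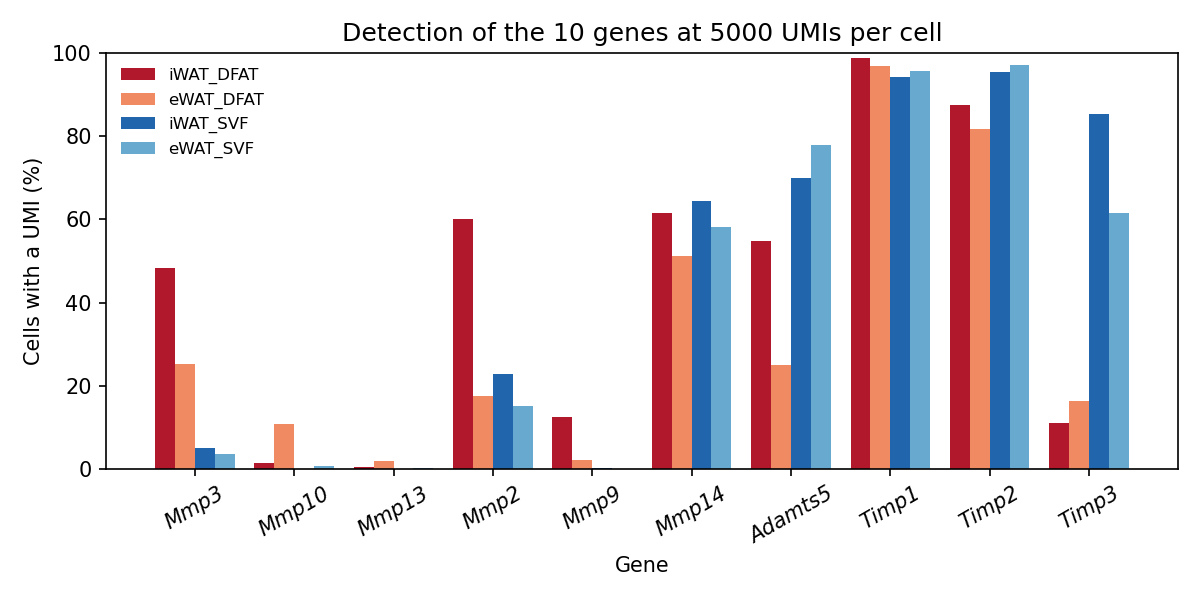
Percent of cells with at least 1 UMI of each gene after every cell was thinned to 5000 UMIs, for the 4 libraries. Timp1 and Timp2 were found in most cells of each library, Timp3 in 85.4% and 61.5% of SVF cells but 11.1% and 16.2% of DFAT cells, and Mmp3 in 48.3% and 25.1% of DFAT cells but 4.98% and 3.66% of SVF cells.

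Some of the Timp3 in DFAT libraries lay in cells with markers of other types. In eWAT_DFAT, 72 cells with 3 or more mesothelial markers held Timp3 at 517 CPM (484 to 551), and the 121 endothelial background cells at 171 CPM. In iWAT_DFAT, 18 cells with glial markers were at 608 CPM (515 to 713). The eWAT_SVF library had 547 cells with 3 or more mesothelial markers, at 864 CPM (849 to 879), against 1 such cell in iWAT_SVF. Of these 547, 93.2% also had 3 or more stromal markers, as did 88.9% of the 72 in eWAT_DFAT, so these markers do not set them apart from stromal cells. With all cells that carried markers of another type left out, Timp3 stood at 55.3 CPM in iWAT_DFAT, 54.2 in eWAT_DFAT, 1303 in iWAT_SVF and 369 in eWAT_SVF, so the order of DFAT and SVF cells stayed.

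The members were also set against whether cells carried proliferation markers, since 39.6% to 56.9% of the cells in a library had 3 or more of 6 cell cycle markers. Mmp2 was lower in these than in cells with none of the 6: 171 against 331 CPM in iWAT_DFAT, 36.9 against 65.1 in eWAT_DFAT, 44.9 against 90.4 in iWAT_SVF and 27.9 against 53.9 in eWAT_SVF. Mmp3, Adamts5, Timp1 and Timp3 followed the same order in every library, for instance Mmp3 at 386 against 527 CPM in iWAT_DFAT. Mmp9 and Mmp13 did so too, but from as few as 2 against 3 UMIs for Mmp9 in eWAT_SVF, and with Mmp13 at 1.31 CPM in both groups of iWAT_DFAT. The other 3 members each broke the order in 1 library: Mmp10 in iWAT_DFAT was at 5.51 CPM in cycling cells against 2.47, Timp2 in eWAT_DFAT at 504 against 485, and Mmp14 in eWAT_SVF at 211 against 202. Cycling cells are deeper (median 26534 against 18127 UMIs in iWAT_DFAT), and fewer of the cells without these markers were stromal, with 68.4% against 92.2% of cycling cells in eWAT_DFAT and 86.5% against 97.1% in iWAT_SVF. The part of depth and of cell type in these differences was not tested.

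Across the members, the ratios were counted where the higher library had 5 CPM or more, and a 2-fold difference was taken as the mark. These counts are read beside the share of all genes past the same mark. The 4 comparisons share libraries and are not independent. For iWAT_DFAT over eWAT_DFAT, all 10 members could be counted: 4 were 2-fold or more higher in iWAT_DFAT (Mmp2, Mmp3, Mmp9 and Adamts5) and 2 in eWAT_DFAT (Mmp10 and Mmp13), where 8.29% and 3.95% of all 10384 genes were. For iWAT_SVF over eWAT_SVF, 7 could be counted, and Timp3 alone was past the mark, higher in iWAT_SVF, with 2.94% of all genes higher in iWAT_SVF and 3.94% in eWAT_SVF. At 1.5-fold, Adamts5 passed as well, higher in eWAT_SVF, with 7.25% of all genes past that mark in iWAT_SVF and 7.44% in eWAT_SVF. The member medians were 0.17 and 0.14 on the log2 scale in these 2 comparisons, and those of all genes 0.09 and 0.05.

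For iWAT_DFAT over iWAT_SVF, 8 members could be counted. Mmp2, Mmp3 and Mmp9 were higher in DFAT cells, where 9.91% of all genes were, and Adamts5 and Timp3 were higher in SVF cells, where 5.18% were. For eWAT_DFAT over eWAT_SVF, 9 could be counted. Mmp3, Mmp10, Mmp13 and Timp1 were higher in DFAT cells (6.44% of all genes), and Adamts5, Timp2 and Timp3 were higher in SVF cells (6.67% of all genes). The member medians were 0.32 and 0.20, against 0.09 and 0.07 over all genes. As the members were picked with these levels known, their counts are no evidence beyond the values. Over all genes, the median log2 ratio rose with gene length in each comparison, from -0.08 in the shortest 20% of genes to 0.29 in the longest 20% for iWAT_DFAT over iWAT_SVF, from -0.05 to 0.26 for iWAT_DFAT over eWAT_DFAT and from -0.02 to 0.15 for eWAT_DFAT over eWAT_SVF. None of the members is in the longest 20%. Timp2 (54672 bases), Timp3 (49135 bases) and Adamts5 (45656 bases) lie in the next group below, whose median was 0.17 for iWAT_DFAT over iWAT_SVF.

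**Figure D4:**
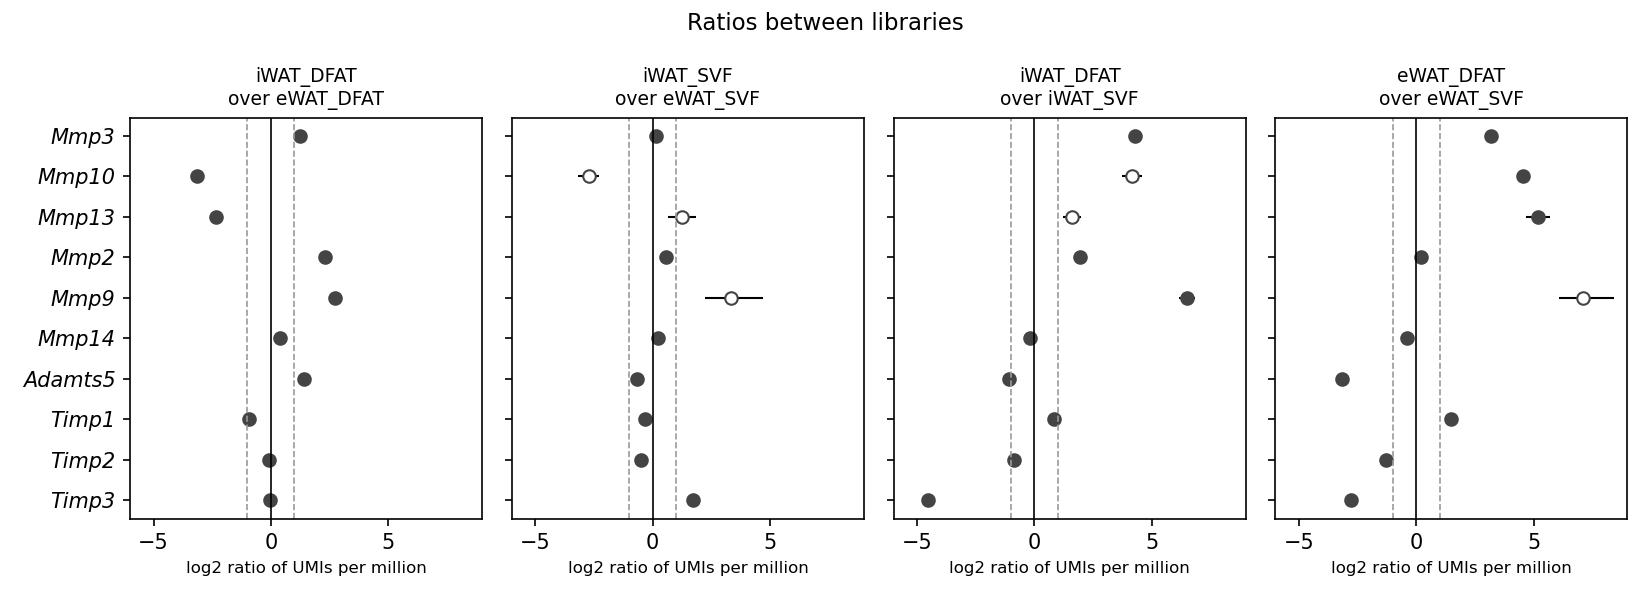
The log2 ratio of the CPM of each gene in the 4 comparisons, with exact binomial 95% intervals (counting error only); dashed lines mark 2-fold, and open points are genes under 5 CPM in both libraries. Mmp3, at 4.30 and 3.18, and Timp3, at -4.53 and -2.78, lie on opposite sides in both comparisons of DFAT with SVF cells.

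The chromosome 9 cluster holds 6 other Mmp genes of the list: Mmp12, Mmp1b, Mmp8, Mmp27, Mmp20 and Mmp7. Mmp8, a neutrophil collagenase, was chosen for mention after its values were seen, since it lies just under the 20 CPM set for naming. It stood at 1.06 CPM in iWAT_DFAT, 19.9 in eWAT_DFAT, 0.231 in iWAT_SVF and 3.21 in eWAT_SVF, the same order of libraries as Mmp10 next to it except that eWAT_SVF was above iWAT_DFAT. Mmp12, known from macrophages, was highest in eWAT_SVF, at 1.70 CPM, and Mmp27 was at most 4.74 CPM. Mmp20 and Mmp7 had at most 2 UMIs in any library.

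**Figure D5:**
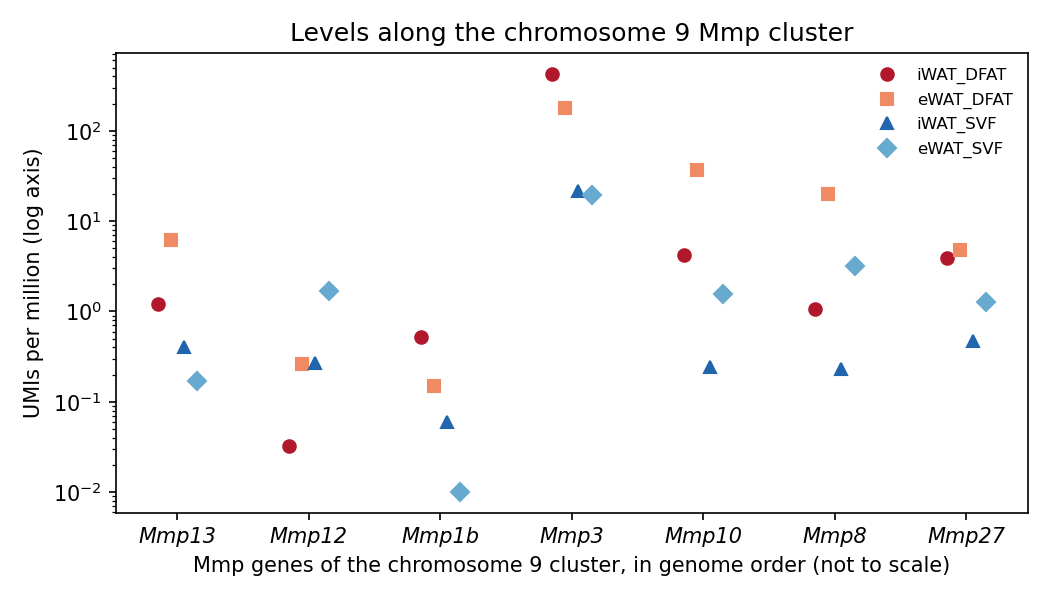
CPM, on a log axis, of the Mmp genes of the chromosome 9 cluster in genome order (spacing not to scale), without Mmp20 and Mmp7, which had at most 2 UMIs in a library. Mmp3, Mmp10, Mmp8 and Mmp13 peaked in DFAT libraries, at 426, 37.1, 19.9 and 6.22, while Mmp12 peaked in eWAT_SVF at 1.70.

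The wider family was taken from 5 lists. Of 16 other Mmp genes in the table, 4 or 5 reached 5 CPM in a comparison. In eWAT_DFAT over eWAT_SVF, 1 of these was 2-fold higher and 3 were 2-fold lower (6.44% and 6.67% of all genes), and in iWAT_DFAT over iWAT_SVF 1 was higher and 1 lower (9.91% and 5.18% of all genes). Mmp19, a basement membrane protease, was at 42.2, 20.6, 12.0 and 12.6 CPM in iWAT_DFAT, eWAT_DFAT, iWAT_SVF and eWAT_SVF. Mmp11, a stromelysin processed by furin, was at 11.8, 8.53, 20.3 and 26.8 CPM, lower in both DFAT libraries.

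Of 18 other Adamts genes, 9 could be counted for iWAT_DFAT over iWAT_SVF, of which 4 were 2-fold higher and 2 lower (9.91% and 5.18% of all genes). For eWAT_DFAT over eWAT_SVF 10 could be counted, of which 3 were higher and 1 lower (6.44% and 6.67% of all genes). Adamts9, which cleaves versican, had 173, 93.0, 26.1 and 31.3 CPM in these 4 libraries, listed as for Mmp19, and so was higher in both DFAT libraries. Adamts1, another proteoglycanase, had 112, 40.6, 134 and 170 CPM, with its lowest level in eWAT_DFAT as for Adamts5. The collagen-processing Adamts14 had 6.56, 21.7, 4.16 and 5.50 CPM, and Adamts6 had 39.9, 60.1, 119 and 89.9 CPM.

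Among 5 other inhibitors, 2 could be counted, and Tfpi2, a serine protease inhibitor, had 16.6, 28.4, 16.9 and 6.86 CPM. Of 9 Adam genes, 2 of 7 counted were higher in iWAT_DFAT than in iWAT_SVF (9.91% of all genes), and 0 of 6 in eWAT_DFAT than in eWAT_SVF (6.44% of all genes); no difference between the depots was tested. All 5 genes for activation, docking and uptake could be counted. Cd44, a cell-surface hyaluronan receptor that can anchor MMP9, had 697, 272, 241 and 134 CPM and was the one of these past 2-fold in each comparison of DFAT with SVF cells.

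Levels varied between cells to very different extents. The Fano factor (variance over mean of thinned counts, which random sampling alone would put near 1) was 11.2, 15.9, 5.28 and 11.2 for Mmp3 in iWAT_DFAT, eWAT_DFAT, iWAT_SVF and eWAT_SVF. For Timp1 it was 6.98 to 14.6, for Timp3 3.26 to 7.69, for Timp2 1.48 to 2.34 and for Mmp14 1.24 to 1.46. The Fano factor grows with the mean, so it is not compared between these genes. By share of UMIs, the 10% of cells with the most Mmp3 held 59.5% of it in iWAT_DFAT and 75.9% in eWAT_DFAT. For Timp1 the same share was 29.0% and 29.9%, for Mmp14 25.8% and 26.9%, and for Timp2 23.2% and 27.6%, shares closer to each other than to that of Mmp3. Like Mmp3, Timp3 was concentrated in few DFAT cells, with 86.3% and 71.6%, and Mmp9 stood at 62.1% in iWAT_DFAT. These shares are of unthinned counts and run higher for genes with few UMIs. The part of low counts in the Timp3 and Mmp9 shares was not tested. Mmp3 and Timp2 were at a like level in iWAT_DFAT, 426 and 479 CPM.

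The genes most like each member across cells were sought with Pearson's r of log-scaled counts. It was averaged over the libraries in which the member had a UMI in 10% of cells or more, over 6464 to 7629 cells each, and is a description. Cells of a library differ in depth and in cell cycle, and they share its free RNA. The part of cell cycle and free RNA in r was not tested, and depth was matched only for pairs of members. Mmp3 was most like Dcn (mean r 0.28), Tmem45a (0.27) and Timp1 (0.26) over 3 libraries. Mmp9, measurable in iWAT_DFAT alone, was most like C3 (0.30), Dcn and Col3a1, and Mmp10, in eWAT_DFAT alone, was most like Mmp3 (0.25), Cck and Akr1c18.

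Over all 4 libraries, the genes most like Timp1 included Mfap5 (0.49) and Serpinf1 (0.49), and Timp2 was most like Sparc, Col1a2 (0.37) and Timp1 (0.37). Adamts5 was most like Ptx3 (0.44), Lox (0.42) and Svep1 (0.42), and Mmp2 was most like Col3a1 (0.30), Serpine2 (0.29) and Fn1 (0.29). Mmp14 was most like Itgb1 (0.26), Fndc3b (0.26) and Foxp1 (0.25), and Timp3 was most like Col1a1 (0.24), Col1a2 (0.23) and Fn1 (0.22). For Timp3, the r with Col1a1 was 0.45 in iWAT_SVF and 0.14 to 0.18 in the other three. With thinned cells, Timp1 and Timp2 had an r of 0.19 to 0.35 in the 4 libraries, against 0.29 to 0.51 without thinning.

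Free RNA was measured in droplets of 1 to 100 UMIs, which held 2.93% to 3.43% of a library's UMIs. Its profile followed that of the cells: over the 31 member levels at 5 CPM or more, the level in free RNA was 0.584 to 1.39 times that in cells. For Mmp3, free RNA stood at 507, 175, 23.8 and 15.4 CPM in iWAT_DFAT, eWAT_DFAT, iWAT_SVF and eWAT_SVF.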

How the data were processed

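The libraries were made with 10x Chromium 3' v3.1 chemistry. The deposited values are UMI counts per gene and barcode, which the authors made with Cell Ranger against mm10 before any cell call. The submitters' processing notes name Cell Ranger 7.0.0, whereas the file headers name 7.1.0 for 3 libraries and 4 for iWAT_SVF. The methods state that introns were included, and the iWAT_SVF header does not name this setting. CellBender, DoubletFinder and Harmony, which the study ran afterwards, were not run. The members and lists were chosen with earlier results of these data known.

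Cells were kept at 5000 to 75000 UMIs, 200 to 7500 genes and under 10% mitochondrial UMIs, with no doublets removed. Counts were summed over cells per library and divided by the total (183664704 to 199357348 UMIs). A count of 0 allows up to 0.0150 to 0.0163 CPM (3 counts). Poisson, conditional binomial and Clopper-Pearson intervals at 95% cover counting error only. With 1 library per group no test was made. Ratios were called at 2-fold with 5 CPM or more in the higher library.

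A cell carried a type with a UMI of 3 or more of its 6 markers. Named genes were the members, up to 8 list genes at 20 CPM or more with the largest ratio, and, per member, the 3 genes with the highest mean r of 0.2 or more. A gene that this rule gives is not reported here. Sequences came from RefSeq promoters (GRCm38.p6) and positions from GENCODE (GRCm38), matched by gene ID. Alternatives covered the cell filters, doublet scores, free RNA, scaling, thinning, other cell types and the fold. BLAST 2.17.0, scanpy 1.11.5, matplotlib 3.10.9, pandas 2.3.3, scipy 1.17.1, numpy 2.4.6 and Python 3.11.15 were used.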

Additional observations from a re-analysis of the deposited data

Results flagged for a closer look

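The log2 ratio of iWAT over eWAT had opposite signs in DFAT and in SVF cells for 3 genes. For Adamts5 it was 1.40 in DFAT and -0.67 in SVF cells, a difference of 2.07. For Timp3 it was -0.05 in DFAT and 1.70 in SVF cells, a difference of -1.75, and the DFAT value lay close to 0 and took either sign under other settings. For Mmp13 it was -2.34 in DFAT and 1.24 in SVF cells, a difference of -3.58, but both SVF libraries were under 1 CPM, 1 cell held 40 of the 81 UMIs in iWAT_SVF, and the SVF ratio was 2.19 with cells that carried markers of other types left out. With 1 library per condition, these differences were not tested.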

How the results depend on the processing

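The counts of members past 2-fold were 6, 1, 5 and 7 for iWAT_DFAT over eWAT_DFAT, iWAT_SVF over eWAT_SVF, iWAT_DFAT over iWAT_SVF and eWAT_DFAT over eWAT_SVF. With 1.5-fold as the mark, the counts were 7, 2, 7 and 7 in the same order. Timp1 joined in iWAT_DFAT over eWAT_DFAT, and Timp1 and Timp2 joined in iWAT_DFAT over iWAT_SVF. In iWAT_SVF over eWAT_SVF Adamts5 joined (7.25% and 7.44% of all genes were past it, higher in iWAT_SVF and in eWAT_SVF). The share of all genes at 1.5-fold was taken for that comparison only, and none was taken under the other settings. Counts without such a share are not read as a result about the members. With median-of-ratios scaling, Timp1 passed 2-fold in iWAT_DFAT over eWAT_DFAT (-1.01). With thinned cells, Adamts5 in iWAT_DFAT over iWAT_SVF fell inside it (-0.97), and with thinned cells or with free RNA subtracted the eWAT_DFAT over eWAT_SVF count was 8. Over 8 alternatives, 39 of 40 member ratios kept their sign in every one, and Timp3 in iWAT_DFAT over eWAT_DFAT ranged from -0.26 to 0.03. Of these 320 values, 100 lay outside the counting interval of the reported ratio, and the largest move was 0.95 (Mmp13 in iWAT_SVF over eWAT_SVF). Scrublet's own threshold marked at most 0.0445% of cells and so did not work; the highest scores, 334 to 466 cells per library, were removed instead. No paired analysis was possible because each group has 1 library and the labels carry no replicate numbers. Genes under 5 CPM are limited by depth, and spread between cultures and source animals cannot be told apart from the conditions. The header version differs only for iWAT_SVF, and so cannot be told apart from it in the 2 comparisons that use that library.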
